A study of Mus musculus with 3 samples.

Results

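The histone mark H3K36me3 was described over 8 genes of fibroblast growth factor (FGF) signalling. They are 4 receptors (Fgfr1, Fgfr2, Fgfr3 and Fgfr4), 2 Sprouty feedback inhibitors (Spry1 and Spry2) and 2 transcription factors of the ETS family that FGF signals switch on (Etv4 and Etv5). Signalling itself was not measured. The genes were taken by their Ensembl identifiers from tables with 24318 identified rows, and all 8 were found at each stage. The tables come from CUT&Tag, in which an antibody guides a transposase to cut and tag the DNA next to the mark. The cells were epithelial cells of the fetal pancreas of wild-type C57BL/6 mice, marked by the surface protein EpCAM and sorted by flow cytometry. They were taken on embryonic day E11.5, then E13.5, and last E15.5, and this is the stage order used for all values below. Each stage has 1 library, so no difference below was tested, no error can be given, and every difference is a size between single libraries. The labels do not give the number of embryos behind a library. In sorted cells, fewer cells carrying the mark and less mark per cell cannot be told apart.

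FGF ligands bind receptor tyrosine kinases at the cell surface, which signal through the MAP kinase cascade. The cascade turns on Etv4 and Etv5 and also the Sprouty genes, whose products damp the same cascade. In the early pancreas, Fgf10 from the mesenchyme acts on the epithelium through Fgfr2 and keeps its progenitors dividing. H3K36me3 is laid down behind elongating RNA polymerase and lies over the bodies of transcribed genes.

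Each row of the tables carries 3 signals, headed GB, PR and SE, which are means per position. Gene length is thus divided out of GB, but its ratios between stages still varied more among shorter genes, as given below. GB covered the whole gene. For 7 of the 8 genes the deposited GB values fitted a window of exactly the RefSeq gene length, from 4653 positions for Spry1 and 4873 for Spry2 to 56960 for Fgfr1, 58258 for Etv5 and 104358 for Fgfr2, and for Etv4 they fitted 15563 positions, 1 fewer than the RefSeq length of 15564. Fgfr3, with 15345 positions, and Fgfr4, with 15942, fitted exactly. The fit alone did not always settle a length: 1 length fitted for Fgfr2, Spry1 and Spry2, but 2 for Etv4, 4 for Etv5, 6 for Fgfr1, 7 for Fgfr4 and 20 for Fgfr3, and the RefSeq length or the one nearest to it was then used. Between 1 and 4 of the 20670 other rows searched fitted any one of these lengths, so few other rows could be mistaken for these genes by length. The PR window has 6000 positions and the SE window 12000, and the headers do not say where they lie. In short genes, the summed PR signal was at least the summed GB signal in 96.9 to 98.1% of rows for genes under 3000 positions, and in 81 to 86% for genes of 3000 to 4000. The SE sum was at least the GB sum in 98.1 to 98.6% of rows for genes of 4000 to 6000 positions, and in 83.9 to 87.1% for genes of 6000 to 8000. PR was therefore read as 3000 positions on either side of the gene's start and SE as 6000 on either side, an inference from the values that no source states.

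The genes lie on 8 chromosomes of GRCm38, the RefSeq name of the mm10 build given in the submitters' processing notes. Fgfr1 (ENSMUSG00000031565) lies at chr8:25518759-25575718, Fgfr2 (ENSMUSG00000030849) at chr7:130162451-130266808, Fgfr3 (ENSMUSG00000054252) at chr5:33721724-33737068 and Fgfr4 (ENSMUSG00000005320) at chr13:55152818-55168759. Spry1 (ENSMUSG00000037211) lies at chr3:37639947-37644599, Spry2 (ENSMUSG00000022114) at chr14:105891947-105896819, Etv4 (ENSMUSG00000017724) at chr11:101769747-101785310 and Etv5 (ENSMUSG00000013089) at chr16:22381313-22439570. In the RefSeq table, 2 long noncoding RNA genes, Gm31288 and Gm16159, lie inside Fgfr1, so its GB signal includes theirs. Another noncoding RNA gene, Gm39392, begins at position 101785321, just past one end of Etv4. No other annotated gene overlapped the 8 genes.

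RefSeq promoter windows, which run from 250 bases before a start site to 50 bases after it, were given for 6 of the 8 genes. The windows shown belong to Fgfr2, Fgfr4 and Etv5, the genes with such a window whose PR signal at E15.5 was at least 2-fold above both earlier stages, and to Spry1, which had the lowest PR signal at E15.5, relative to E13.5, of the genes with such a window. They were thus picked by their PR values, and each is the window at the RefSeq end of its gene. Each is written 5′ to 3′ along the gene's own strand in GRCm38.p6, with the CG dinucleotides that can carry DNA methylation in capitals.
Fgfr2, chr7:130266759-130267058, minus strand: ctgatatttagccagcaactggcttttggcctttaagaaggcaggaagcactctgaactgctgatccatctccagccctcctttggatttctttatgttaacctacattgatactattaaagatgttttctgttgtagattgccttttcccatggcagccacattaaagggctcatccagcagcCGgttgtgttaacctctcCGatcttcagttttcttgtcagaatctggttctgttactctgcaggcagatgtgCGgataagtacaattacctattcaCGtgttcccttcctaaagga
Fgfr4, chr13:55152568-55152867, plus strand: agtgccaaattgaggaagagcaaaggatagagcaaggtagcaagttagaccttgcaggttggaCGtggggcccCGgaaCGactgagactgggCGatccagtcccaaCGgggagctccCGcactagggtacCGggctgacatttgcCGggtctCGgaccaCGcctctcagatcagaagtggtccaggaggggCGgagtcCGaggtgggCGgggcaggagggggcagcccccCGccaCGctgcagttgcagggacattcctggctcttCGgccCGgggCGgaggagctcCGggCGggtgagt
Etv5, chr16:22439521-22439820, minus strand: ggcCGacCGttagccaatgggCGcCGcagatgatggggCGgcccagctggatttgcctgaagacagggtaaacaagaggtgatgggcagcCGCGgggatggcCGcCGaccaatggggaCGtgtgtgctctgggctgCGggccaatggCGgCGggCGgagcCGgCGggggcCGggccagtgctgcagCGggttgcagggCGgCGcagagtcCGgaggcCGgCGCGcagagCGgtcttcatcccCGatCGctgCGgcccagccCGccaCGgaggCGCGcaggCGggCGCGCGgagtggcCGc
Spry1, chr3:37639697-37639996, plus strand: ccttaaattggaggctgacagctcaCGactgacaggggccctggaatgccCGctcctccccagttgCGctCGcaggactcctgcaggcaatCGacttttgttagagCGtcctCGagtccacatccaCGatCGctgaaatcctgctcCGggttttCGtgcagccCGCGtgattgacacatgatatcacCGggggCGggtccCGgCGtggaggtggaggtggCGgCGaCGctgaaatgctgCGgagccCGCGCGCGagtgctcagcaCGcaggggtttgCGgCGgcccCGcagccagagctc
The Fgfr2 window holds 4 CG dinucleotides, below the median of 7 over the 32851 promoter windows in the table. Those of Fgfr4, Spry1 and Etv5 hold 20, 29 and 37, at percentiles 74.4, 87.7 and 94.7. The 3 genes picked for PR at least 2-fold above both earlier stages at E15.5 thus include both a CG-poor and a CG-rich start. The letters CGGAAG, a core that ETS factors can bind, and their reverse complement CTTCCG were in none of the 8 windows listed for the 6 genes, and in 16.9% of all windows.

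In the libraries as a whole, GB was listed at 0 in 12.9%, 14.8% and 20.3% of identified rows in stage order, and median GB was 0.00432, 0.00421 and 0.00371. PR had medians of 0.00394, 0.00368 and 0.00559. All levels are in the deposited units, and percentiles are among all identified rows of a library unless rows of like length are named, which are those with a gene length between 0.5 and 2 times that of the gene. The reference table matched 0 of the deposited identifiers. The sorted cells were therefore not checked against marker genes of epithelium or other lineages, and other genes of the FGF pathway were not analysed here.

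The 8 genes stood near the middle of the library at E11.5 and above it at both later stages. Their median GB was 0.00461, 0.00768 and 0.00911 in stage order, which placed the median member at percentile 52.8, 77.0 and 74.8. Ranked among rows of like length, the median member was at percentile 45.7, 67.8 and 75.2. Among all rows, 5 of 8 were above the 50th percentile at E11.5, and 7 of 8 at either later stage. The one below it was Etv4 at E13.5 and Spry1 at E15.5. At each stage Fgfr3 alone was above the 90th percentile.

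**Figure D1:**
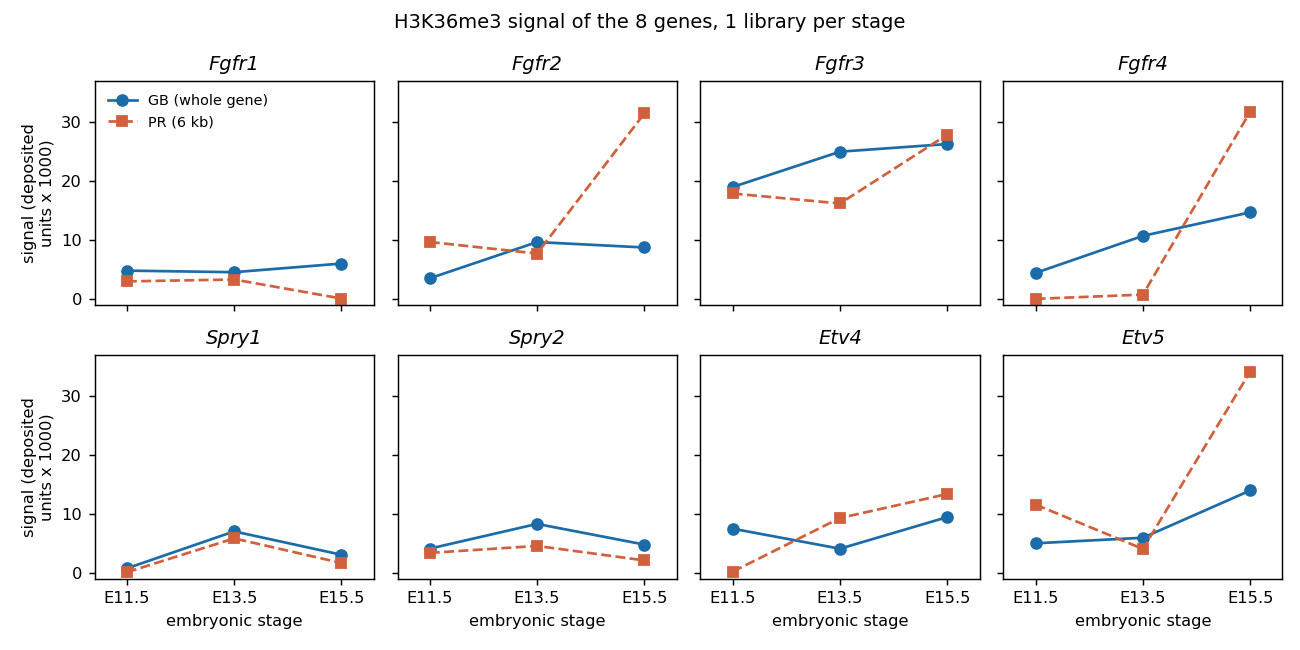
GB signal (whole gene, circles) and PR signal (6000 positions, squares) of the 8 genes by embryonic stage, in deposited units times 1000, with 1 library per stage and hence no error bars. Fgfr3 has the highest GB at all 3 stages, and PR of Fgfr2, Fgfr4 and Etv5 is highest at E15.5, at 0.0315, 0.0318 and 0.0342 in deposited units.

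Among the receptors, Fgfr3 had the highest GB at each stage, while its PR at E15.5 was below that of Fgfr2 (0.0315) and Fgfr4 (0.0318). Its GB was 0.019, 0.025 and 0.0263 in stage order, at percentiles 96.1, 98.3 and 93.3. Against rows of like length it was as high, at percentiles 97.6, 99.5 and 94.9. Its PR of 0.0179, 0.0162 and 0.0279 was 0.943, 0.647 and 1.06 times its GB, and the outer part of its SE window, outside PR, held 0.0175, 0.0298 and 0.016. Signal was thus high over the start, its surroundings and the whole of Fgfr3. The receptor that Fgfr3 encodes is best known for its part in the growth of long bones.

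Fgfr2, the receptor through which Fgf10 reaches the pancreatic epithelium, had lower GB at E11.5 than at either later stage. GB of Fgfr2 was 0.00349, then 0.00965 and 0.00873 in stage order, at percentiles 41.6, 85.1 and 73.7. Against rows of like length it stood at percentiles 32.7, 97.0 and 88.8. PR was already at percentile 80.3 at E11.5. PR did not follow at E13.5, with 0.00966, 0.0077 and 0.0315 in stage order, and only at E15.5 was it above both earlier stages. PR was thus 2.77, 0.798 and 3.61 times GB in stage order. The Fgfr2 values are means over the longest gene of the 8. Their sums were 2250, 6016 and 5591 steps in stage order, where a step is the smallest unit in which a library's summed signal was recorded.

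Fgfr4 had the lowest PR of the receptors at E11.5. At E15.5 it had the highest, but close to that of Fgfr2 (0.0315). PR of Fgfr4 was listed at 0, then 0.000725 and 0.0318, which is percentile 3.8, 22.6 and 90.0. Its GB went up in smaller steps, with 0.00441, 0.0107 and 0.0147, at percentiles 50.9, 88.0 and 84.9, and at 38.6, 86.4 and 82.7 against rows of like length. At E13.5 the outer part of its SE window held 0.0142, percentile 93.4, while PR inside it was nearly empty. The signal of Fgfr4 at E13.5 thus lay away from the start. At E15.5 PR was high, while the outer part of the SE window was lower than at E13.5, at 0.00532, percentile 65.0. The PR sum was then 1172 steps and the GB sum 1434. PR and GB overlap inside the gene under the windows assumed here. How much of the higher GB at E15.5 came from that overlap was not tested.

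Fgfr1, a receptor used widely in mesenchyme, had GB near the middle of the library. Its GB was 0.0048, 0.00453 and 0.006 in stage order, at percentiles 54.7, 53.3 and 63.3. Its start showed the opposite of Fgfr2 and Fgfr4 at E15.5. PR was 0.00297 at E11.5 and 0.00329 at E13.5, but 5.5e-05 at E15.5, which is 2 steps in 6000 positions and the most frequent PR sum above 0 in that library. The whole SE window was as empty there, at 5.4e-05. Fgfr1 was the only receptor with PR below GB at all 3 stages, at 0.618, 0.727 and 0.00917 times GB.

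By GB, the order of the receptors was Fgfr3, Fgfr1, Fgfr4 and Fgfr2 at E11.5, with Fgfr1 and Fgfr4 close to each other. At E13.5 and E15.5 it was Fgfr3, Fgfr4, Fgfr2 and Fgfr1. Without a second library per stage, which neighbours in these orders differ beyond the spread between embryos was not measured.

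The Sprouty genes were highest at E13.5. Spry1 had GB of 0.000765, 0.00705 and 0.00308 in stage order, at percentiles 19.4, 73.8 and 45.4. Spry2 had 0.00412, 0.00832 and 0.00481, at percentiles 48.0, 80.1 and 57.2. PR had its maximum at E13.5 in both as well, with 0.000108, 0.00586 and 0.00168 for Spry1 and 0.0034, 0.00458 and 0.00212 for Spry2. PR and GB share up to 3000 positions in these short genes, so the 2 columns are not separate measurements. These are also the thinnest values of the 8 genes, with GB sums of 22, 196 and 88 steps for Spry1 and 124, 242 and 144 for Spry2.

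Both Sprouty genes are shorter than the 6000 positions that SE reaches into a gene, so the SE sum could be split into the gene and the rest of its window. In Spry1 most of the signal lay in the gene. The gene takes 38.8% of the window and held 73.3%, 93.3% and 91.7% of the SE sum in stage order, and the 7347 positions around it averaged 0.000177, 0.000318 and 0.000177. Spry2 lay in a more evenly marked stretch. The gene takes 40.6% of the window and held 39.2%, 55.3% and 64.9% of the sum, with 0.00436, 0.0046 and 0.00178 around it. Spry2 thus stood out from its surroundings at the later stages and not at E11.5.

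**Figure D2:**
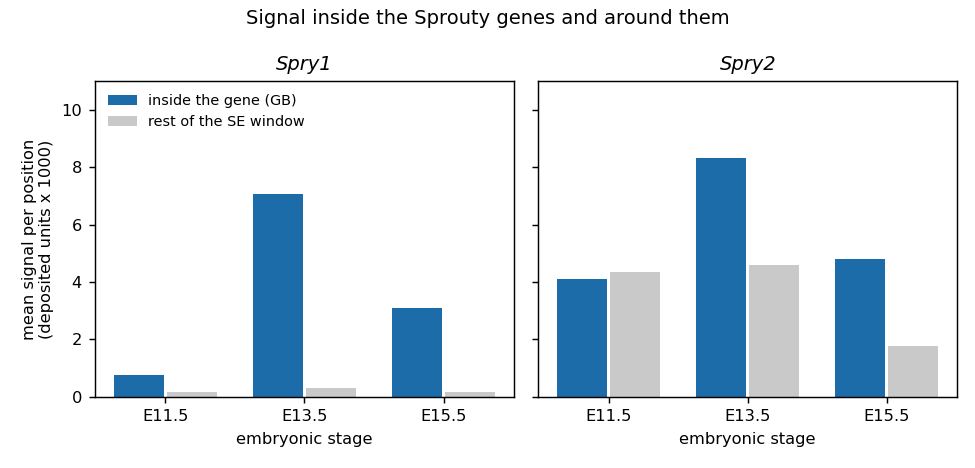
Mean signal per position, in deposited units times 1000, inside Spry1 and Spry2 (GB) and in the rest of the 12000-position SE window by embryonic stage, with 1 library per stage. Spry1 stands above its surroundings at each stage, with 0.00705 inside and 0.000318 around it at E13.5 in deposited units, while Spry2 has 0.00412 inside and 0.00436 around it at E11.5.

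Of the ETS factors, Etv5 was highest at E15.5 in both columns. Its GB was 0.00503, 0.00597 and 0.014 in stage order, at percentiles 56.5, 66.2 and 84.1, and at 53.7, 67.9 and 94.7 against rows of like length. Its PR was 0.0116, 0.00407 and 0.0342, so that E13.5 was the lowest. Etv5 has a second RefSeq promoter window, chr16:22438319-22438618, which lies inside the gene and within the assumed PR window. The factor acts in the tips of branching epithelia such as that of the lung.

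Etv4, its close relative, did not share this order. Its GB was 0.00751, 0.00411 and 0.00948 in stage order, at percentiles 73.9, 48.8 and 75.8, with its low at E13.5. Fgfr1 also had its lowest GB at E13.5, but by a smaller margin. PR of Etv4 ran otherwise, with 0.000217, 0.00932 and 0.0134. PR was thus 0.0289, 2.27 and 1.41 times GB in stage order. The PR window of Etv4 may include part of Gm39392, whose share in these values was not tested.

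**Figure D3:**
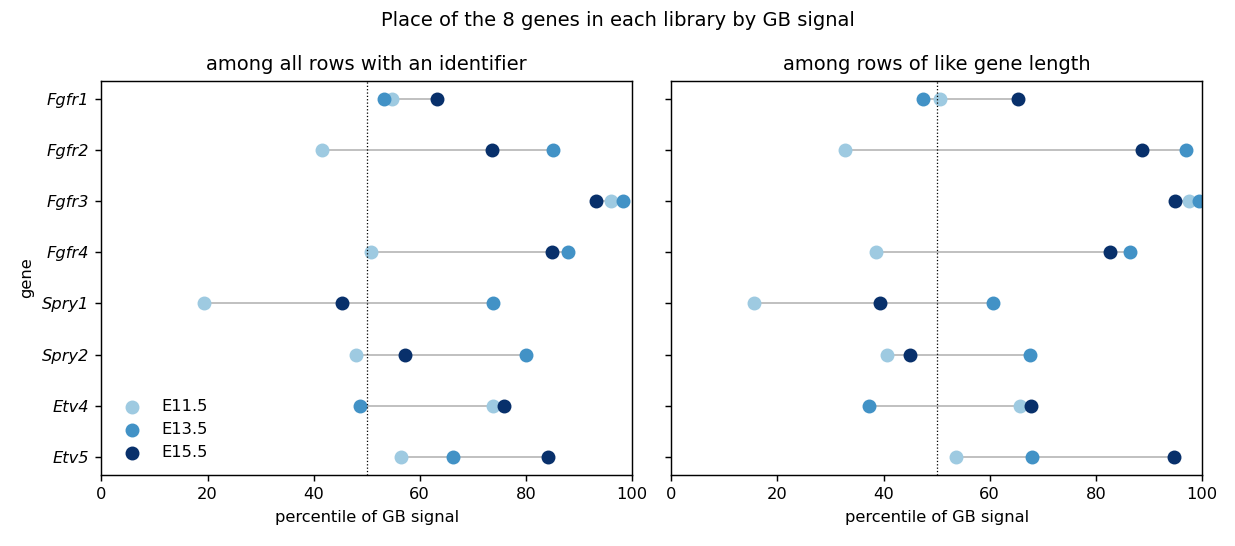
Percentile of GB signal of each gene by stage, from E11.5 (light) to E15.5 (dark), among all 24318 identified rows on the left and among rows of like gene length on the right, with the 50th percentile dotted. Fgfr3 is at percentile 93.3 or above in both panels, and Fgfr2 spans the widest range among rows of like length, from 32.7 at E11.5 to 97.0 at E13.5.

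The E13.5 library was first compared with that of E11.5. Ratios are log2 of the later over the earlier stage after adding 0.001 to both values, which understates the ratios of low genes. A gene was counted where its higher library reached a floor of 0.00413 for GB or 0.00407 for PR, which is the column's median over the 3 libraries. In GB, 3 of 8 genes were at least 2-fold higher at E13.5, against 17.2% of the 16346 rows counted, and 0 were at least 2-fold lower, against 19.4%. The median log2 ratio was 0.62 over the 8 genes and -0.07 over all rows counted. The 3 genes were Fgfr2 (log2 ratio 1.25), Fgfr4 (1.11) and Spry1 (2.19). Spry2 had 2.02 times its E11.5 level as deposited but a log2 ratio of 0.86 after the addition.

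Such ratios were spread more widely among shorter genes. Of rows of like length to Fgfr2, 2.33% were at least 2-fold higher at E13.5 and 2.1% at least 2-fold lower, and the ratio of Fgfr2 was at percentile 99.2 of the 2616 rows. Of rows of like length to Fgfr4, 14.2% were at least 2-fold higher, and its ratio was at percentile 88.1. Of rows of like length to Spry1, 27.3% were at least 2-fold higher and 30.5% at least 2-fold lower, and its larger ratio was at percentile 88.2. Among the 3, Fgfr2 was the one outside the range in which 90% of rows of like length lay, -0.80 to 0.80. For PR, 6 of 8 genes were counted. Spry1 and Etv4 were at least 2-fold higher at E13.5, against 28.7% of 16911 rows, and Etv5 was at least 2-fold lower, against 32.8%, with a median log2 ratio of 0.10 over the 6 genes and -0.16 over all rows.

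The E15.5 library was then compared with that of E13.5. In GB, Etv4 and Etv5 were at least 2-fold higher at E15.5, 2 of 8 genes, against 27.6% of 16006 rows, and 0 were at least 2-fold lower, against 22.1%. The median log2 ratio was 0.20 over the 8 genes and 0.22 over all rows counted, so the typical gene of the 8 moved about as far as the typical row. Etv5 had a log2 ratio of 1.10, at percentile 91.4 of rows of like length, and Etv4 one of 1.04, at percentile 72.8. Spry1 and Spry2 were lower at E15.5, with log2 ratios of -0.98 and -0.68. Spry1 had 0.437 times its E13.5 level as deposited, so that only the addition of 0.001 kept it from being counted as at least 2-fold lower, and with 0.0001 added in its place the ratio was -1.17. Dividing each library by the median GB of the 18106 rows above 0 in all 3 libraries left Etv5 (1.03) as the 1 gene at least 2-fold higher, with Etv4 at 0.97, and made Spry1 (-1.05) at least 2-fold lower. Fgfr2 had -0.13 and Fgfr3 0.07. The sign of these 2 small ratios depended on the scaling: dividing each library by its median GB gave 0.04 for Fgfr2, and dividing by the median of the 18106 rows gave -0.01 for Fgfr3.

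In PR, E15.5 stood apart across the library, with 52.2% of 17609 rows at least 2-fold higher than at E13.5 and 24.7% at least 2-fold lower. The genes have to be read against that shift. Of the 7 genes counted, Fgfr2, Fgfr4 and Etv5 were at least 2-fold higher and Spry1 was at least 2-fold lower. Fgfr1 was below the floor in both libraries and so not counted, with a log2 ratio of -2.02. Spry2 had 0.463 times its E13.5 level as deposited but a log2 ratio of -0.84 after the addition of 0.001. Over the 7 genes the median log2 ratio was 0.75, against 1.12 over all rows. The ratio of Fgfr4, 4.25, was at percentile 95.5 of all rows counted, those of Etv5 (2.79) and Fgfr2 (1.90) at percentiles 80.0 and 64.8. Fgfr2, at 4.09 times its E13.5 level, thus lay well within the spread of all rows.

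Comparing E15.5 with E11.5 spans the whole period. GB was higher at E15.5 in all 8 genes, as deposited and under both scalings, with 7 counted and a median log2 ratio of 0.45, against 0.14 over all rows. The median row was thus also higher, and the share of all rows that were higher was not counted. Spry1, at 0.00308 at E15.5 and 0.000765 at E11.5, was not counted because both values were below the floor. At least 2-fold higher were Fgfr2 (1.12), Fgfr4 (1.53) and Etv5 (1.31), 3 of 7 genes, against 26.5% of 16048 rows, and 0 were at least 2-fold lower, against 22.8%. Against rows of like length these ratios were at percentiles 95.3, 85.3 and 94.1. The other 4 counted, Fgfr1, Fgfr3, Spry2 and Etv4, had log2 ratios between 0.18 and 0.45. These were at percentiles 51.3 to 59.3 of all rows counted, not far from the middle. In PR, 4 of 5 genes counted, Fgfr2, Fgfr4, Etv4 and Etv5, were at least 2-fold higher, against 50.0% of 17716 rows, and 0 were at least 2-fold lower, against 26.0%. Fgfr4, listed at 0 at E11.5, and Etv4, with a log2 ratio of 3.56, were at percentiles 99.0 and 90.5 of these rows, while Fgfr2 and Etv5 were at 61.0 and 58.8. The 3 genes left out of the PR count were below the floor in both libraries. Of these, Fgfr1 (log2 ratio -1.91) and Spry2 (-0.50) were lower at E15.5 and Spry1 (1.28) was higher. The absence of lower genes thus holds only for the genes counted, since Fgfr1 passed 2-fold lower without the floor.

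**Figure D4:**
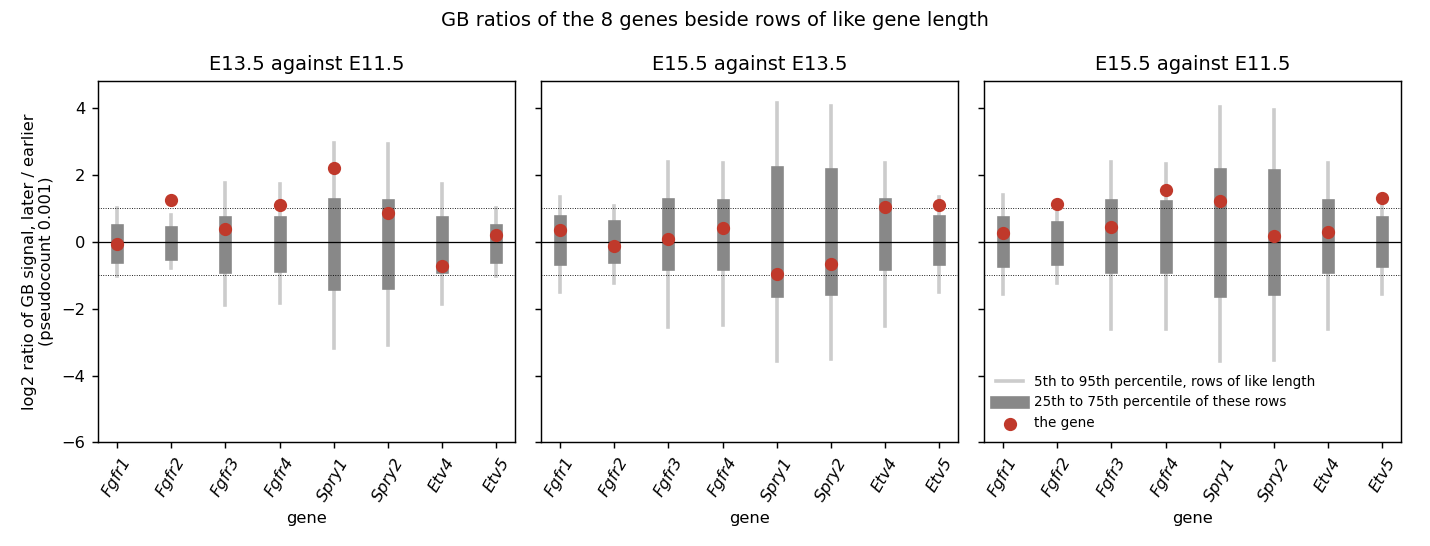
Log2 ratio of GB signal (later over earlier stage, pseudocount 0.001) of the 8 genes as points, beside the 25th to 75th percentile (thick bars) and the 5th to 95th percentile (thin bars) of rows of like gene length, for the 3 comparisons. Dotted lines mark 2-fold. The bars are narrowest for Fgfr2, whose ratio of 1.25 for E13.5 against E11.5 lies above them, and widest for the Sprouty genes.

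The 3 comparisons share libraries. The E13.5 library enters both steps, so the maximum of the Sprouty genes and the minimum of Etv4 at E13.5 each rest on that single library. Likewise, the low GB of Fgfr2 at E11.5 stands behind its ratios to both later stages.

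PR relative to GB within a library, in which any scale factor cancels, was above 1 in 2 of 8 genes at E11.5 (Fgfr2 and Etv5), 1 of 8 at E13.5 (Etv4) and 5 of 8 at E15.5 (Fgfr2, Fgfr3, Fgfr4, Etv4 and Etv5). Over all rows with GB above 0 the share was 39.9%, 38.1% and 51.9%. At E15.5 the genes were spread widely. Fgfr2, Fgfr4 and Etv5 had PR of 2.17 to 3.61 times GB, Etv4 and Fgfr3 had 1.41 and 1.06 times, Spry1 and Spry2 had 0.546 and 0.44 times, and Fgfr1 had 0.00917 times. In Fgfr2 the outer part of the SE window held 0.000378, 0.00407 and 0.00136 in stage order, at percentiles 18.9, 53.7 and 50.4, and so had its maximum at E13.5, where PR had its minimum.

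The rows with a GB course most like each gene were looked up by the distance in GB percentile over the 3 libraries. The closest row to Fgfr3, ENSMUSG00000025732, lay 1.07 percentile points away, and the closest to Spry1, ENSMUSG00000112854, lay 2.79 away. Within 5 points there were 110 rows for Fgfr3, between 12 and 39 for each of Fgfr1, Fgfr2, Fgfr4, Spry2, Etv4 and Etv5, and 6 for Spry1. The reference table pairs neither of these identifiers with a gene name. Likeness over 3 libraries is a description only.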

How the data were processed

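H3K36me3 CUT&Tag was measured in 3 libraries, 1 per stage. Bowtie2 2.4.2 and the build mm10 are given in the submitters' processing notes, and filtering, counting, scaling and gene models are not stated. From these reads the authors deposited 1 table per library with 25493 rows and 3 columns of signal (PR, GB, SE), per the file headers; 1175 rows (4.61%) had no identifier and were left out. Each value looks like a mean per position: multiplied by 6000 (PR) or 12000 (SE), nearly all values above 0 were a whole number of steps, a step being fixed per library (0.16188, 0.16743 and 0.16292 in stage order, tolerance 0.011). The most frequent PR sum above 0 was 2 steps in each library. Whether a step stands for a read is not stated, so depth is unknown and no counting interval is given. GB lengths are the smallest window of whole steps in all libraries above 0 (at least 2), found for 20628 rows, except that the 8 genes have the fitting length nearest to RefSeq's (for Fgfr1, 56960, where 28480 also fitted). On 600 simulated windows, 94.2% were exact and 99.8% within 2-fold. These shares do not apply to the deposited rows. There, of the 9934 lengths found that were at least 20000, 43.1% equalled a RefSeq length, against 14.9% after a shift of 7. How many of the remaining lengths are exact was not tested, and the sets of rows of like length rest on them.

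Samples were grouped by the stage in the labels. Levels, percentiles (mid-ranks) and log2 ratios (pseudocount 0.001, 2-fold, floor at the column's median) were computed in Python 3.11.15 with pandas 2.3.3 and numpy 2.4.6. No test was run. The genes, lists and settings were chosen with earlier results of these data known. All 8 genes are named; for the rows most like them 2 identifiers are printed. The alternatives were 3 other pseudocounts, 2 scalings, a 1.5-fold threshold, no floor, and other sets of rows for percentiles. Sequences are from RefSeq, GRCm38.p6.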

Additional observations from a re-analysis of the deposited data

How the results depend on the processing

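The counts of genes at least 2-fold apart, in either direction, were 3 of 8, 2 of 8 and 3 of 7 for GB and 3 of 6, 4 of 7 and 4 of 5 for PR, for the first step, the second step and the whole span. A pseudocount of 1 left 0 in all 6 by construction, since it is far above the values. A pseudocount of 0.005 left 1, 0 and 1 for GB, and a 1.5-fold threshold gave 5 for GB in the first comparison and 4 in the second. The other alternatives kept each count within 1.5 times, but some changed its directions. Dividing by the median GB of rows above 0 in all libraries was chosen after seeing the data. It turned the 2 higher of the second GB comparison into 1 higher (Etv5, 1.03) and 1 lower (Spry1, -1.05). There, a pseudocount of 0.0001 gave 2 higher and 1 lower for GB, and 3 higher and 2 lower for PR. Without a floor, PR had 3 higher and 2 lower in the second comparison and 5 higher and 1 lower over the whole span. The planned division by the median GB moved the median log2 GB ratio over all rows by 0.04, 0.18 and 0.23, and the added one by 0.05, -0.10 and -0.03. The sign of a ratio that reached 2-fold could not serve as a check. Other pseudocounts, the threshold and the floor cannot change a sign, and the shifts from scaling were too small to do so. Median percentiles of the 8 genes moved by at most 10 points when ranked among rows above 0 or of like length. No paired analysis was possible because a stage is a single library without a test. Depth is unknown, and without replicates the spread between embryos was not measured.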
